A study of Mus musculus with 10 samples.

Results

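The stretch of mouse chromosome 5 from 40 to 80 Mb (mm7 coordinates, per the file headers) was described probe by probe in whole lung of wild-type and p53-null mice. Members were all non-control probes that the array design places there, without 9 probes of 4 genes that the rule leaves out, which gave 361 of 41174 probes and 237 of 27666 gene names. The window was chosen from the p53-null against wild-type contrast itself, because its probes had been called often, so the differences below are a description and support nothing about the region. Of the 361 members, 264 had signal well above background on 5 or more of the 10 arrays and were tested (73.1%, against 76.7% of all probes). The other 97 were not tested: 58 were above background on no array and 39 on 1 to 4 arrays.

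Lungs came from male mice aged 8 weeks, taken after 30 min of inhaled saline aerosol, and total RNA labelled with Cy3 was hybridised to 1-colour Agilent arrays. Wild-type C57BL/6J mice made up 5 arrays and p53-null mice the other 5. The design text calls them biological replicates, and p-values here measure the spread between these samples. The labels do not name the p53 allele or the background strain of the null mice, and both groups had received saline.

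The proximal part of mouse chromosome 5 carries several gene families that arose by duplication and still lie side by side. Tlr1 and Tlr6 encode cell-surface Toll-like receptors that pair with TLR2 and recognise bacterial lipopeptides, and Txk and Tec encode neighbouring non-receptor tyrosine kinases of lymphoid and myeloid cells. A cluster of GABA-A receptor subunit genes and the receptor tyrosine kinase gene Kit also lie here, among widely expressed genes of RNA processing, membrane traffic and metabolism. p53, encoded by Trp53 on another chromosome, is a transcription factor that acts on growth arrest, apoptosis and metabolism genes.

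The probes behind the genes described most below are shown by their leading 30 bases of 60, as the scanner files give them, so that a reader can tell apart probes filed under the same gene. Positions are on mm7, and the exon or untranslated region each probe falls in was not determined because no annotation of that build was used here.
Tlr1, chr5:64279687-64279746, minus strand: caagcatggacttttttgggcaaacctaag
Tlr6, chr5:64307937-64307996, minus strand: ttatgaagttagccttagtcaatgaggatg
Rhoh, chr5:65248021-65248080, plus strand: gagagactaaaacaaccatcctaatttaga
Lgi2, chr5:51906877-51906936, minus strand: taaagctgtatctacttagctctttttgga
Tmem33, upstream of the called pair, chr5:66642888-66642947, plus strand: ctcactgttgcatgattggaagtacttaaa
Tmem33, downstream of the called pair, chr5:66643277-66643336, plus strand: gtaaacatactgatttctaatgatgtttta
AK007181, filed under Tmem165, chr5:76115901-76115960, minus strand: cttctattaaatgtcaagtgagtcccagcc
Tmem165, chr5:76141207-76141266, plus strand: tgacccccttataaacacgttttctccttg
The last pair is filed under 1 gene name but lies on opposite strands, 25.3 kb apart. The first of them is matched to Tmem165 by the file's symbol only, so it is called by its cDNA accession AK007181 below.

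Promoters of 4 of the described genes are shown from RefSeq (GRCm38.p6, from 250 bases before to 50 after the annotated start, the first listed start of each gene). Capitals mark GAGGAA, the core that ETS-family factors such as PU.1 prefer, and GGGCGG, the GC box, on either strand.
Tlr1 promoter, chr5:64933509-64933808, minus strand: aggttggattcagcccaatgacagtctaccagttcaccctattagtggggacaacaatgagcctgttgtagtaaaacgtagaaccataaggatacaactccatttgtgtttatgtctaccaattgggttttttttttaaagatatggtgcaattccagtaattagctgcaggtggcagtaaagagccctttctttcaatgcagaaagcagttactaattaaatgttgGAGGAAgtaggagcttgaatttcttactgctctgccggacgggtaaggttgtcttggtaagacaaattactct
Tlr6 promoter, chr5:64959117-64959416, minus strand: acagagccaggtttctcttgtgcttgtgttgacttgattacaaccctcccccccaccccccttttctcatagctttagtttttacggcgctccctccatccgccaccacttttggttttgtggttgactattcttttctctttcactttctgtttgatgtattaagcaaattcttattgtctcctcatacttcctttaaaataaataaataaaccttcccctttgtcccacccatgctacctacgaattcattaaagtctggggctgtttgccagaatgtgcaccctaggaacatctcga
Lgi2 promoter, chr5:52566257-52566556, minus strand: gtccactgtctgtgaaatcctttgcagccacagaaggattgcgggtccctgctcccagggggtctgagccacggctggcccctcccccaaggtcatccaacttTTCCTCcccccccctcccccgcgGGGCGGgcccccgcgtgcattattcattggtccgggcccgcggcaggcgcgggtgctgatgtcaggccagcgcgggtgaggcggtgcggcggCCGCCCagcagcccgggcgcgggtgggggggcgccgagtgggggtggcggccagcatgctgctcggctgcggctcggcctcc
Tmem33 promoter, chr5:67260315-67260614, plus strand: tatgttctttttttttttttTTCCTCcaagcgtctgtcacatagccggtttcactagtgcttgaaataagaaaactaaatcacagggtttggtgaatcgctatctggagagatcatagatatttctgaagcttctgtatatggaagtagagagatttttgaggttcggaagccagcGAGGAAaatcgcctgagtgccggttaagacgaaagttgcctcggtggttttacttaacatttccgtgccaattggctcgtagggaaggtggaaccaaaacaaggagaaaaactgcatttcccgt
Promoters were listed for 8 of 8 genes called higher and 13 of 15 called lower that were named through the reference table. GAGGAA was in a promoter of 4 of the 8 higher and 3 of the 13 lower genes, against 31.3% of the 27025 genes of the promoter table and 33.3% of the 105 tested member genes with a promoter. GGGCGG was in 3 of the 8 and 10 of the 13, against 38.2% of all genes and 64.8% of the tested member genes. The p53 half-site, searched by its consensus on both strands, was in none of the 8 or the 13, against 9.55% of all genes and 10.5% of tested member genes. These are matches of letters in a short window and say nothing of binding.

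Spots well above background made up 71.4% to 84.0% of an array, and precision is limited by the number of arrays. The signal of a Trp53 probe printed in 10 spots was lower in p53-null lung (-1.28 ± 0.16, adjusted p = 0.00589 by limma), with p53-null arrays at -3.15 to -2.66 and wild-type arrays 1 to 4 at -1.67 to -1.43. Wild-type array 5 stood apart at -2.22, and a second Trp53 probe, which differed by 0.31 ± 0.28, read 1.24 there. Without wild-type array 5 the 2 probes were called in opposite directions. The first differed by -1.41 (adjusted p = 0.000356 by limma) and the second by 0.59 (adjusted p = 0.00834 by limma). Each array's deviation from a probe's mean over the 10 arrays also followed the GC content of probes to different degrees. The correlation of that deviation with GC content was -0.32 to 0.003 on wild-type arrays 1 to 4, 0.35 on wild-type array 5 and 0.004 to 0.20 on the p53-null arrays. Member probes had a median GC content of 36.7%, against 40% for all probes. Counts for the region and for each gene list of the window are given with and without that array, and those for the region also after removal of the GC trend. Counts of cell type markers are given with all arrays only. Of the 6 slides 5 held a single genotype.

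Values are log2 signals relative to each array's 75th percentile, and differences (p53-null minus wild type) carry the SE of the limma fit over 5 arrays per group. A probe was called at a Benjamini-Hochberg adjusted p under 0.05 over all 31598 probes tested. With all 10 arrays, 28 of the 264 tested members were called (10.6%), against 7.10% of all tested probes. Of these, 9 were higher in p53-null lung (3.41%, against 4.0% of all probes) and 19 lower (7.20%, against 3.1%). They belong to 25 gene names, 9 higher and 16 lower. The differences were small: they ran from 0.44 to 1.23 among higher probes and from -0.86 to -0.34 among lower probes, and only Tlr1 and Rhoh reached 1. In 24 of the 28 (85.7%) the values of the groups did not overlap, as in 82.7% of all 2245 called probes, since a call favours groups that lie apart. The median difference of all tested members was -0.056, against 0.037 for all tested probes.

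How many of these calls held depended on which array was left out: all 28 held without wild-type array 5, but only 2 in every such fit. Between 0 and 19 members were called higher and between 2 and 64 lower in the 10 fits that left out 1 array, and in the absence of wild-type array 2, wild-type array 3, p53-null array 1 or p53-null array 3 the counts were 0 higher and 2 lower (16 to 23 and 39 to 52 at an unadjusted limma p under 0.05, against 24 and 60 with all arrays). Of all tested probes, 20.1% to 23.7% passed the unadjusted threshold in those 4 fits, against 27.3% with all arrays. The share of members called in those 4 fits, 0.758% to 0.772%, was below that of all probes, 0.973% to 1.74%. Leaving out wild-type array 1 gave 7 and 10 (6.46% of members against 4.14% of all probes), and wild-type array 4 gave 4 and 4 (3.1% against 2.59%). Without wild-type array 5 the counts were 19 and 64 (31.6% against 31.0%). Leaving out p53-null array 2 gave 3 and 6 (3.49% against 2.49%), and array 4 gave 4 and 5 (3.45% against 2.35%). Without p53-null array 5 the counts were 1 and 2 (1.16% against 1.65%). One probe each of Lgi2 and Tmem33 was called in all 10 of those fits, Tlr1 and Rhoh in 5, and each of the other called members in at most 4. After each array's GC trend was taken out, 8 of the 9 higher calls but 4 of the 19 lower calls held, a share of 4.55% of members against 3.59% of all probes. The differences of the 19 lower members had a median of -0.53 before and -0.49 after this step, and ran from -0.87 to -0.36 after it, with adjusted p of at most 0.13 by limma.

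Calls were unevenly placed within the window. From 50 to 70 Mb, 21 of 125 tested members were called (16.8%), 7 higher and 14 lower. From 40 to 50 Mb the count was 3 of 50 (6%), all lower, and from 70 to 80 Mb 4 of 89 (4.49%). The bin from 50 to 55 Mb held 7 lower calls and no higher call among 30 tested members, and the bin from 60 to 65 Mb held 4 of each among 44. Only 5 members were tested from 55 to 60 Mb, none of them called. Elsewhere on chromosome 5, 101 of 1680 tested probes were called (6.01%), and 2 windows on chromosome 11 had 11.3% (60 to 80 Mb) and 14.3% (80 to 100 Mb). With 1 probe per gene, 17 of 85 genes from 50 to 70 Mb were called (20.0%), against 7.46% of all genes.

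**Figure D1:**
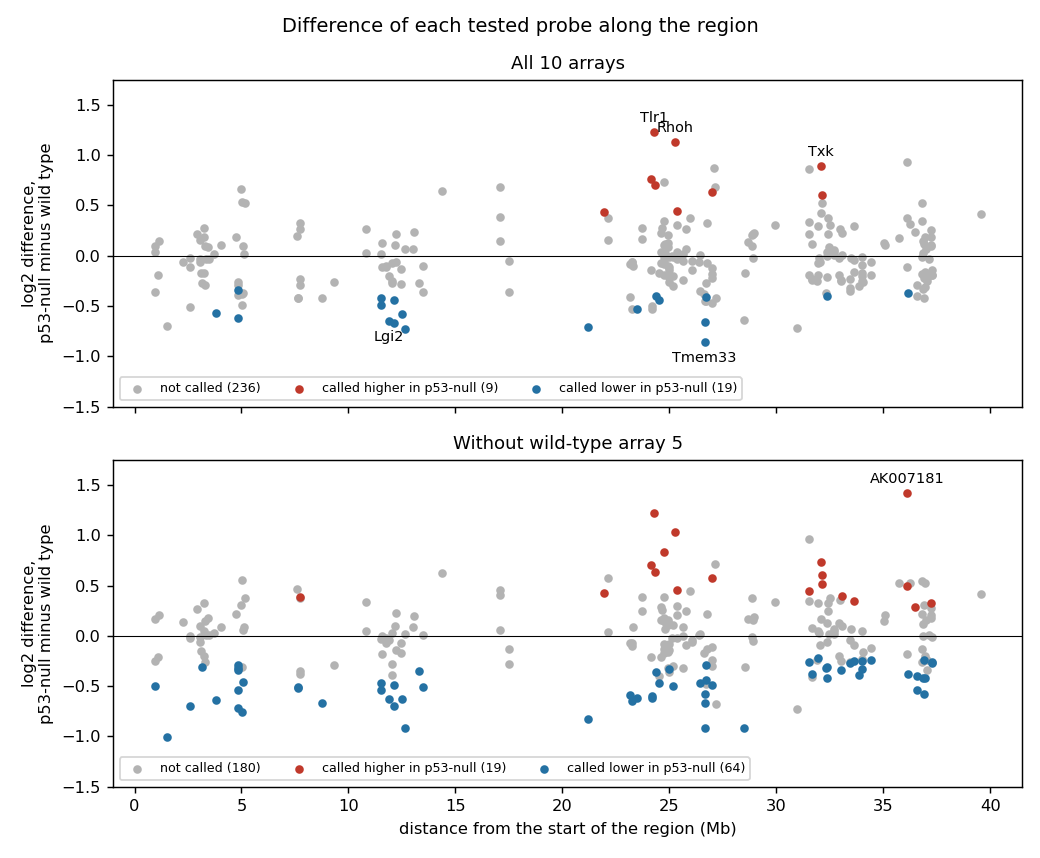
Difference of each tested member (log2, p53-null minus wild type, vertical axis) against distance from the start of the region in Mb, with all 10 arrays (top) and without wild-type array 5 (bottom). Grey points were not called, red were called higher and blue called lower. With all arrays the 28 called members lie mostly between 10 and 30 Mb from the start (21 of 28), while without array 5 the 83 called members are spread along the window and 64 of them are lower.

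**Figure D2:**
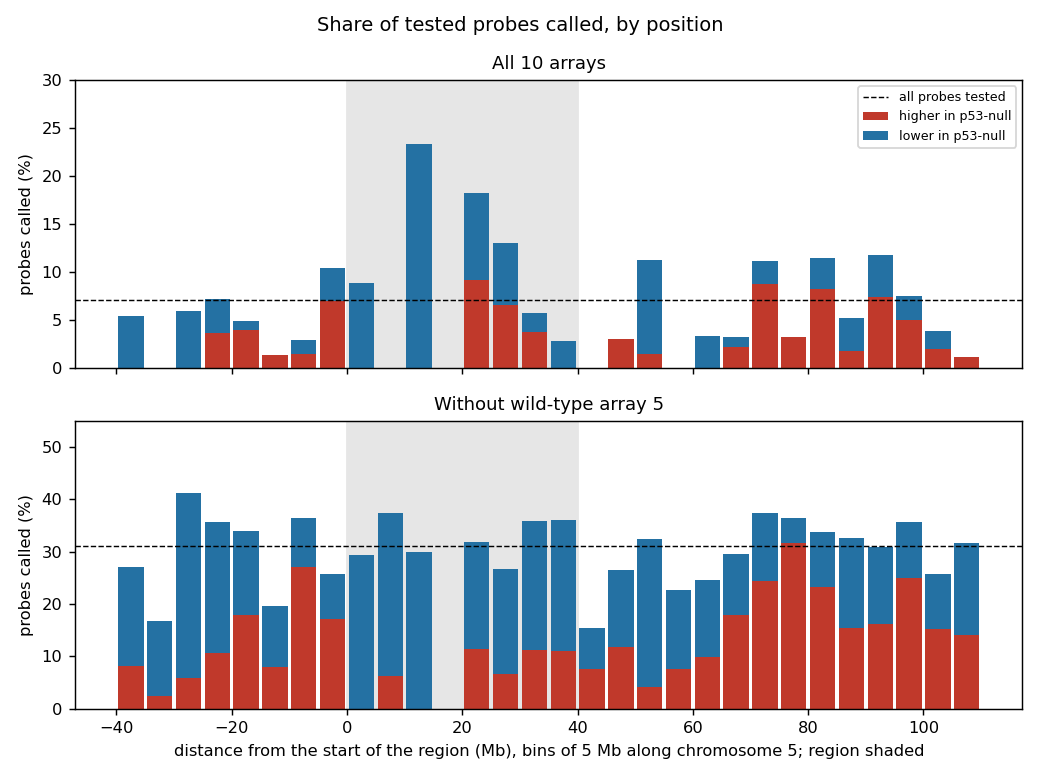
Percentage of tested probes called in bins of 5 Mb along chromosome 5, by distance from the start of the region in Mb (region shaded), with all 10 arrays (top) and without wild-type array 5 (bottom); bins with under 10 tested probes are not drawn. Dashed lines mark 7.10% and 31.0%, the shares over all probes tested. The bins from 10 to 15, 20 to 25 and 25 to 30 Mb stand at 23.3%, 18.2% and 13.0% in the upper plot and at 30.0%, 31.8% and 26.7% in the lower one.

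Among immune cell genes of the window, 5 of the 11 tested were higher in p53-null lung and 1 was lower, and the list's median difference was 0.18. In this and the other lists a gene was counted in each direction in which any of its probes was called, while medians use its brightest probe. Over all tested probes 4.0% were called higher and 3.1% lower, and 16.5% and 14.4% without wild-type array 5. Tlr1 read -2.68, -2.69, -3.44, -2.18 and -2.80 on wild-type arrays 1 to 5 and -0.98, -1.77, -1.30, -2.02 and -1.55 on p53-null arrays 1 to 5. All p53-null arrays lay above all wild-type arrays, and the difference was 1.23 ± 0.25, a 2.35-fold higher signal. Tlr6, whose probe starts 28.2 kb away, read -3.24, -3.12, -3.46, -2.85 and -3.49 in wild type and -2.33, -2.65, -2.29, -2.76 and -2.63 in p53-null lung. Its groups did not overlap either, with a difference of 0.70 ± 0.15. Tlr1 and Tlr6 are close paralogs, and whether the probes cross-hybridise was not tested.

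Rhoh, a GTPase-deficient small G protein of blood cells that acts in T cell receptor signalling, read -1.98, -1.95, -2.52, -1.69 and -2.52 in wild type. On the p53-null arrays it read -0.43, -1.25, -0.84, -1.41 and -1.11, all above the wild-type values, with a difference of 1.13 ± 0.22. Txk, a kinase of T and NK cells, read -1.66, -2.25, -2.48, -1.72 and -2.83 in wild type and -1.24, -1.57, -0.90, -1.51 and -1.25 in p53-null lung. Its groups lay close but did not overlap, with a difference of 0.89 ± 0.23, and a second Txk probe differed by 0.43 ± 0.30 and was not called. Its neighbour Tec, 64.3 kb away and expressed in myeloid cells, B cells and T cells, was higher by 0.60 ± 0.13, while a second Tec probe differed by 0.52 ± 0.14 and missed the threshold. The called Tec probe read -2.64 to -2.35 in wild type and -2.23 to -1.60 in p53-null lung, without overlap.

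The other 6 immune genes had values on both sides of 0. Sel1l3, a membrane protein gene expressed in B cells among others, fell by 0.58 on the log2 scale (SE 0.13). The ectoenzyme genes Cd38 (0.18 ± 0.15) and Bst1 (-0.27 ± 0.11), the Notch effector Rbpj (0.066 ± 0.080), the calcium sensor gene Stim2 (-0.36 ± 0.16) and the mast cell receptor gene Kit (0.11 ± 0.15) were not called. Without wild-type array 5 the same list had 5 genes higher and 3 lower, with Bst1 and Stim2 among the lower.

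Leukocyte markers elsewhere in the genome were compared as well, and they did not all go the same way. Their relation to the member genes was not tested. For scale, 4.0% of all tested probes were called higher and 3.1% lower. Of 8 neutrophil markers 7 were higher in p53-null lung, with a summed level (log2) of 3.70 to 4.06 on wild-type and 4.78 to 5.64 on p53-null arrays. Of 8 B cell markers 7 were higher (3.29 to 4.46 against 4.95 to 5.97), and of 8 T and NK cell markers 5 were higher (1.88 to 2.40 against 2.63 to 3.08). Of 5 macrophage markers 1 was higher and 1 lower (5.77 to 6.55 against 5.98 to 6.30), with wild-type array 5 at 6.55 and wild-type arrays 1 to 4 at 5.77 to 6.09. All of these markers were above background. The part of these cells in the result was not tested, and in whole lung more cells of a type and more RNA per cell cannot be told apart.

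Other members were higher as well. Shisa3, an endoplasmic reticulum protein that restrains Wnt and FGF receptors, was higher by 0.63 ± 0.14, at -3.67 to -3.25 in wild type and -3.03 to -2.45 in p53-null lung. Arap2, a GTPase-activating protein for Arf6, was higher by 0.44 ± 0.11, but wild-type array 1 (1.06) lay within the p53-null range of 1.02 to 1.32, and a second probe differed by 0.16 ± 0.23. The uncharacterised gene 9130230L23Rik was higher by 0.44 ± 0.11, with wild-type array 1 at -4.55 beside p53-null values of -4.55 to -4.34. The unnamed transcript AK140658, chosen after its values were seen, was higher by 0.76 ± 0.17.

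**Figure D3:**
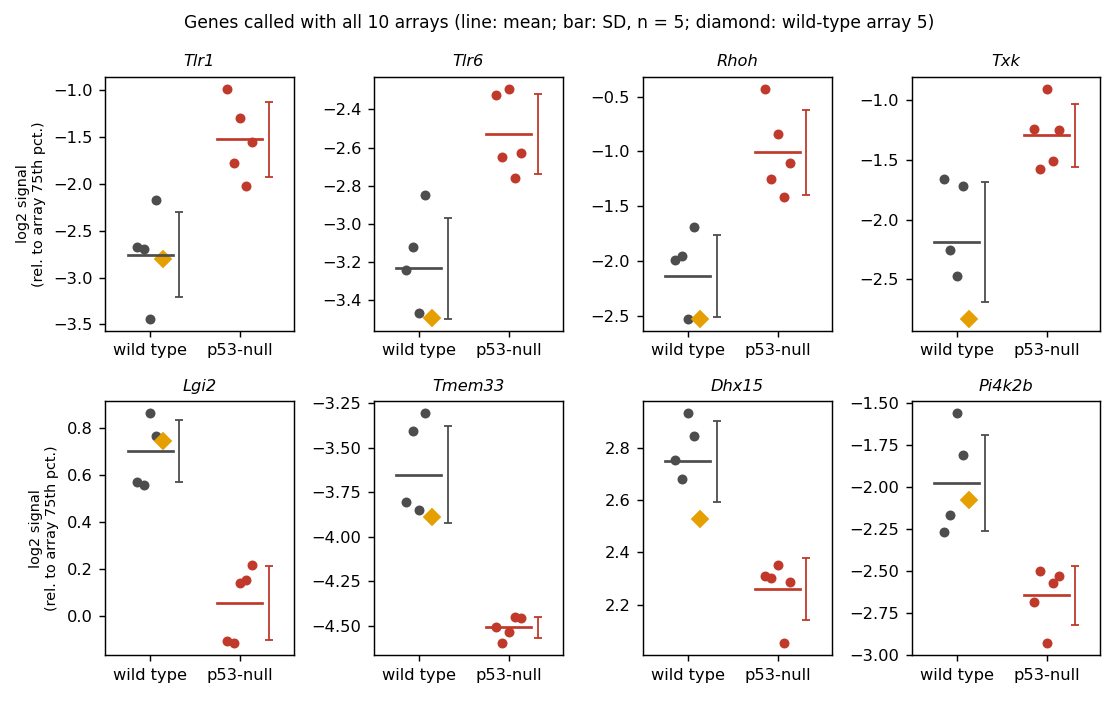
Log2 signal relative to the array's 75th percentile (vertical axis, not starting at 0 and scaled per gene) on each wild-type and p53-null array for 8 called genes; lines are means, bars are SD (n = 5) and the diamond is wild-type array 5. In the upper 4 genes all p53-null arrays lie above the wild-type arrays, in the lower 4 all lie below, and array 5 does not overlap the p53-null arrays in any of them.

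The lower members came from several functions. Tmem33, which encodes an endoplasmic reticulum membrane protein, fell with 2 of 3 probes, which start 389 bases apart. The downstream probe read -3.80, -3.41, -3.85, -3.31 and -3.89 on wild-type arrays 1 to 5 and -4.51, -4.60, -4.53, -4.45 and -4.46 on p53-null arrays. The groups were separated by more than the range of the p53-null arrays, with a difference of -0.86 ± 0.13. The upstream probe of the pair differed by -0.66 ± 0.13, and another Tmem33 probe, placed before both, by -0.38 ± 0.26 without a call.

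Lgi2, which encodes a secreted leucine-rich repeat protein best known in neurons, read 0.57, 0.56, 0.86, 0.76 and 0.75 in wild type. In p53-null lung it read -0.11, -0.12, 0.14, 0.15 and 0.22, all below the wild-type values, with a difference of -0.64 ± 0.10. The second Lgi2 probe differed by -0.20 ± 0.18 and was not called, so the probes of this gene did not give the same size.

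Of 10 tested genes of chromatin, transcription and RNA, 2 were lower, and the list's median difference was -0.33. Dhx15, an RNA helicase that takes spliceosomes apart, read 2.75, 2.68, 2.93, 2.84 and 2.53 in wild type and 2.31, 2.30, 2.35, 2.05 and 2.29 in p53-null lung. Its groups did not overlap, with differences of -0.49 ± 0.098 and -0.42 ± 0.092 from probes that start 20 bases apart and so share most of their sequence. Med28, a subunit of the Mediator complex that links transcription factors to RNA polymerase II, fell by 0.62 on the log2 scale (SE 0.13) with one probe and differed by -0.39 ± 0.16 with the other. For the called probe, wild-type array 5 (-3.88) lay within the p53-null range of -4.24 to -3.86. The transcriptional repressor Klf3 missed the threshold with both probes, at -0.53 ± 0.15 and -0.49 ± 0.13. The others named by rule were not called: Rest, a repressor of neuronal genes (0.26 ± 0.096), Lcorl (-0.37 ± 0.14), Nfxl1 (-0.25 ± 0.100) and the mRNA-binding protein gene Cpeb2 (-0.51 ± 0.20). Without wild-type array 5, 9 of the 10 genes of this list were lower by at least 1 probe and 1 was higher, with a median difference of -0.48. The brightest probes of Fip1l1 (0.048) and Nfxl1 (-0.24) were not called in that fit, in which 14.4% of all tested probes were lower. Klf3 (-0.62), Lcorl (-0.46) and Cpeb2 (-0.70) were then among the lower and Rest (0.32) was the higher gene.

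Of 19 tested mitochondrial and metabolic genes, 4 were lower, with a median difference of -0.056, close to that of all members. Pi4k2b, a kinase that makes phosphatidylinositol 4-phosphate, fell with both of its probes, by 0.67 (SE 0.15) and 0.44 (SE 0.11) on the log2 scale. The first of these read -2.27, -2.17, -1.56, -1.81 and -2.08 in wild type and -2.69, -2.50, -2.93, -2.58 and -2.53 in p53-null lung, without overlap. Pgm2, an enzyme that interconverts pentose phosphates, fell by 0.53 (SE 0.13). The zinc transporter gene Slc30a9 fell by 0.41 (SE 0.10), and the aminopeptidase gene Lap3 by 0.34 (SE 0.086) with 1 of 3 probes. Paics of purine synthesis (-0.22 ± 0.071) and Srd5a3 of dolichol synthesis (0.37 ± 0.13) were not called. G6pd2 fell by 0.71 (SE 0.14), but it is an intronless copy of the X-linked glucose-6-phosphate dehydrogenase gene, and signal from the parent transcript cannot be told apart from it here. The list had 1 gene higher and 8 lower without wild-type array 5 (median -0.13).

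Among 14 tested genes of lung epithelium, endothelium and mesenchyme, 1 was lower, with a median difference of -0.23. The lower gene was Ldb2, an adaptor of LIM-domain transcription factors found in endothelium, which fell by 0.56 (SE 0.15) from a wild-type range of -0.17 to 0.51 to a p53-null range of -0.63 to -0.30. The guidance ligand gene Slit2 was near the threshold with 2 of its probes, both at -0.42 (SE 0.12 and 0.13), another differed by 0.19 ± 0.46, and 3 further Slit2 probes were not tested for low signal. Fgfbp1 (-0.29 ± 0.10), Limch1 (-0.35 ± 0.13), Sgcb (-0.25 ± 0.093) and Adgra3 (-0.26 ± 0.12) were not called. The alveolar type 2 phosphate transporter gene Slc34a2 (-0.13 ± 0.17) and Hopx (-0.22 ± 0.10), a marker of alveolar type 1 cells, were not called either. In this list 4 genes were lower and 0 higher without wild-type array 5 (median -0.25). Elsewhere in the genome, 3 of 5 fibroblast markers were lower in p53-null lung (summed level 6.96 to 7.37 in wild type, 6.55 to 6.79 in p53-null) and 1 of 4 endothelial markers (6.69 to 7.08 against 6.54 to 6.67). Of 5 alveolar type 2 and 4 alveolar type 1 markers none passed the limma threshold (8.21 to 8.91 against 8.39 to 8.73, and 6.65 to 7.0 against 6.53 to 6.90). Wild-type array 5 set the top of both wild-type ranges. Wild-type arrays 1 to 4 stood at 8.21 to 8.33 for type 2, below all p53-null arrays, and at 6.65 to 6.81 for type 1. The part of any of these cells in the lower members was not tested.

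Of 12 tested genes of cell division, ubiquitin and translation, 1 was lower. It was Klhl5, a BTB-kelch protein gene, which read 2.61, 2.57, 2.85, 2.69 and 2.51 in wild type and 2.17, 2.36, 2.23, 2.20 and 2.10 in p53-null lung, without overlap (-0.43 ± 0.088). The condensin subunit gene Ncapg (0.53 ± 0.22), Anapc4 (0.22 ± 0.083), Usp46 (-0.23 ± 0.080), Cep135 (-0.29 ± 0.12) and Dcun1d4 (-0.19 ± 0.090) were not called. Of 18 tested genes of vesicles, membranes and cilia, Arap2 was higher and 3 were lower. Beside Tmem33 these were Slain2, a microtubule plus-end protein gene, with 1 of 4 probes (-0.40 ± 0.081), and Tmem165, a Golgi ion transporter gene, with its plus-strand probe (-0.37 ± 0.082). Exoc1 of the exocyst (0.24 ± 0.087) and the GTPase gene Rab28 (-0.36 ± 0.14) were not called. Fam114a1 fell by 0.40 (SE 0.092), and AK045702, an unnamed transcript, by 0.72 (SE 0.19), and both were named after their values were seen. Without wild-type array 5, the cell division list had 4 genes lower and 0 higher (median -0.17), and the vesicle list 4 higher and 9 lower (median -0.11). Commd8, with probes at -0.26 and 0.45, counts in both directions there. So does Tmem165, through AK007181 (1.42) and its plus-strand probe (-0.38).

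Some receptor and channel genes of excitable cells in the window had signal too low to test in lung. Of 11 receptor and channel genes on the array, 7 were tested. Gabrg1, Gabra2 and Chrna9 were among those not tested, for low signal. Shisa3 was the called member. Gabra4 (-0.72 ± 0.77) and Gabrb1 (0.86 ± 0.44) had large errors near background, and Kcnip4 (-0.24 ± 0.16), Cckar (0.24 ± 0.11) and Kctd8 (-0.64 ± 0.27) were not called. Spata18, a p53-inducible gene of mitochondrial quality control, differed by 0.23 ± 0.19 and was not called with all arrays. Without wild-type array 5 it was called higher in p53-null lung, by 0.40 (adjusted p = 0.038 by limma), and the receptor and channel list then had 1 gene higher and 1 lower.

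Without wild-type array 5, 83 of 263 tested members were called (31.6%), against 31.0% of all tested probes. Of these 19 were higher (7.22%, against 16.5% of all probes) and 64 lower (24.3%, against 14.4%), and 65 gene names were involved. The 28 members called with all arrays were all among them, and 55 were added, 10 higher and 45 lower. The shares by position then became similar: 28.2% from 50 to 70 Mb, 32% from 40 to 50 Mb, 36% from 70 to 80 Mb and 31.2% on the rest of chromosome 5. With GC content also corrected for, 15 members were higher and 49 lower (24.3%, against 21.8% of all probes).

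Members added by leaving out wild-type array 5 are chosen by where that array lies, so its place among them is a description only. In 49 of the 55 it lay nearer to the p53-null mean than to the mean of wild-type arrays 1 to 4, and in 47 it lay outside the range of those 4 arrays on the p53-null side. Over all 7471 probes added in the same way, array 5 lay nearer to the p53-null mean in 88.8%, against 89.1% of the added members. Among the 28 called with all arrays, array 5 lay on the p53-null side of the midpoint in 6. Over all 83 the share was 66.3%, against 76.9% of all probes called in that fit.

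The transcript AK007181 showed this most. It read 0.80, 0.96, 0.49 and 0.44 on wild-type arrays 1 to 4, 3.11 on wild-type array 5, and 2.53, 2.10, 1.86, 1.96 and 2.01 on the p53-null arrays. Array 5 was thus above all p53-null arrays, and the difference was 0.93 ± 0.46 with it and 1.42 without it. The plus-strand Tmem165 probe showed no such gap, with array 5 at 2.60 between wild-type values of 2.56 and 2.79, and differed in the opposite direction. Kctd8, an auxiliary subunit gene of GABA-B receptors, read -2.22, -2.53, -2.41 and -2.25 on wild-type arrays 1 to 4 and -3.71 on array 5, below the p53-null range of -3.53 to -3.01.

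Other genes showed the same arrangement at smaller size. Cpeb2 read -2.13 to -1.68 on wild-type arrays 1 to 4, -2.89 on array 5 and -2.81 to -2.47 on p53-null arrays. Srd5a3 read 0.55 to 0.66, 1.21 and 0.96 to 1.21 in the same order, and Limch1 3.73 to 3.91, 3.26 and 3.20 to 3.47. Rab28, by its brightest probe, read 2.03 to 2.10, 1.38 and 1.41 to 1.67. Other probes of these genes did not follow. A second Limch1 probe read 1.46 on array 5, within the 1.25 to 1.47 of wild-type arrays 1 to 4, and a second Srd5a3 probe read -1.42 there, below both the -1.22 to -0.89 of those arrays and the p53-null range of -1.40 to -1.13. For Tlr1, Lgi2 and Klhl5, by contrast, array 5 lay on the wild-type side, and their differences without it were 1.22, -0.63 and -0.47.

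**Figure D4:**
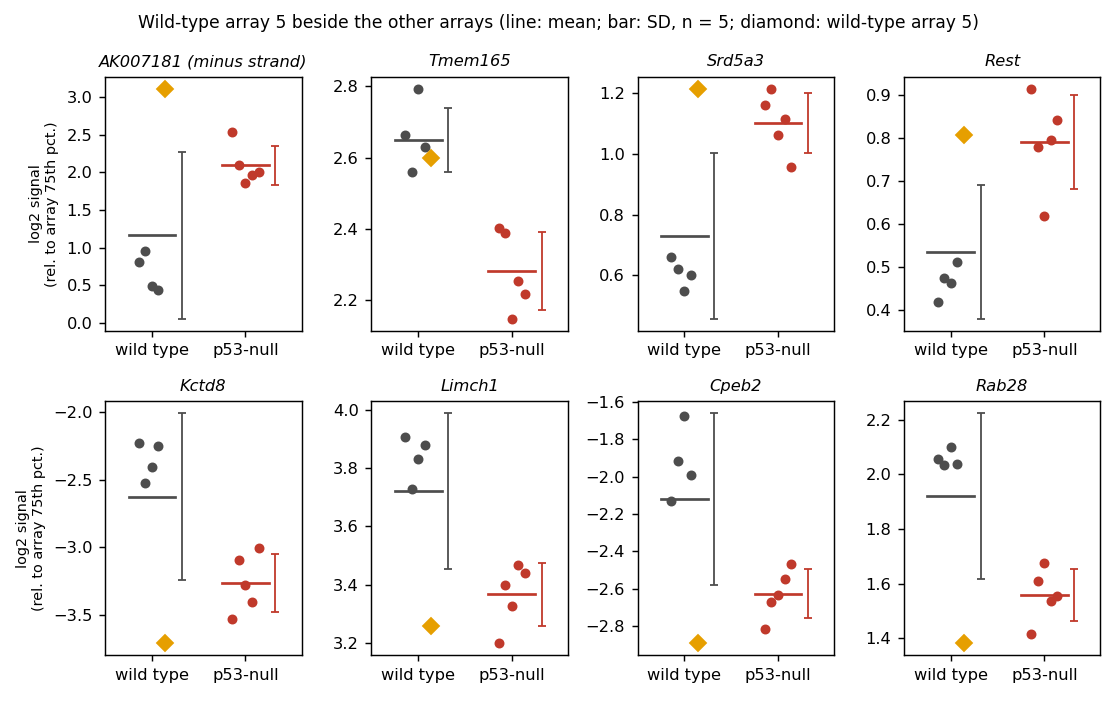
Log2 signal relative to the array's 75th percentile (vertical axis, not starting at 0 and scaled per probe) on each array for 8 probes, most of them chosen after their values were seen; lines are means, bars are SD (n = 5) and the diamond is wild-type array 5. In 7 of the 8 probes array 5 lies within or beyond the p53-null arrays and away from wild-type arrays 1 to 4; the plus-strand Tmem165 probe is the exception.

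Genes with several probes allowed their probes to be compared with each other. Such probes were read on the same 10 arrays, so their agreement does not test the group difference. Of 65 member genes with 2 or more tested probes, 47 had probes that all differed in the same direction, and the median spread between the probes of a gene was 0.24. Of 116 pairs of such probes 90 had the same sign. Among the 14 of these genes with a called probe, 13 had the same sign throughout, but in only 2, Dhx15 and Pi4k2b, were all tested probes called. The exception in sign was the pair filed under Tmem165, which was also the only pair to differ by more than 1.

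**Figure D5:**
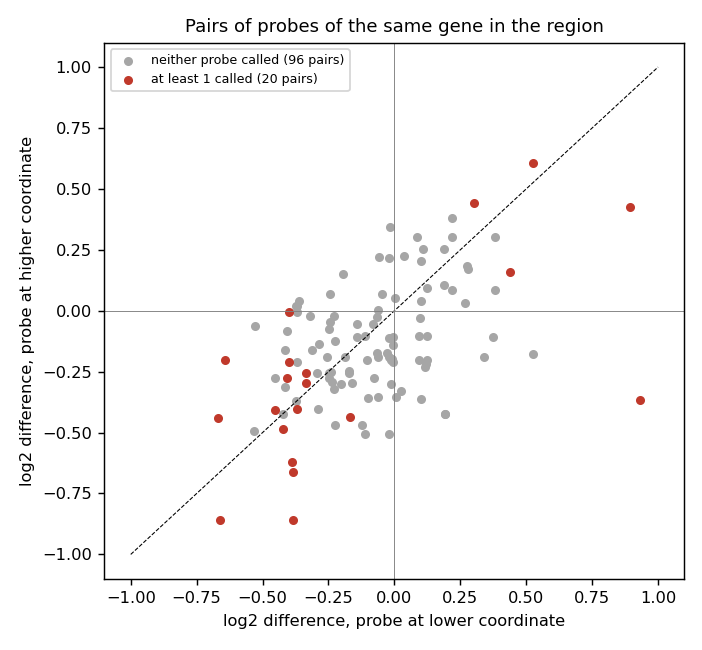
Log2 difference (p53-null minus wild type) of the probe at the lower coordinate (horizontal axis) against that of the probe at the higher coordinate (vertical axis) for 116 pairs of tested probes of the same gene; the dashed line marks equal values and red points are pairs with a called probe. Most pairs lie in the quadrants of equal sign (90 pairs), and the point at 0.93 and -0.37 is the pair filed under Tmem165.

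On the 1 slide that held both groups, with p53-null array 2 and wild-type array 4, Tlr1 differed by 0.40, Rhoh by 0.44, Tmem33 (downstream probe) by -1.29 and Lgi2 by -0.88, with 1 array on each side and no replicate. The first member inside the lower edge was a Rab28 probe at 40.9 Mb (0.10 ± 0.10), and the last probe before it was Hs3st1 at 38.9 Mb (0.37 ± 0.19). The last member inside the upper edge was the unnamed NAP030253-1 at 79.6 Mb (0.41 ± 0.15), and the next probe beyond it was AK039475 at 81.0 Mb (0.023 ± 0.28).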

How the data were processed

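Whole-lung RNA of 5 wild-type and 5 p53-null mice was measured on 1-colour arrays. Per the submitters' processing notes the scans were read with Agilent Feature Extraction 9.5. The deposited intensity is background-subtracted, per the file headers, and the authors' value table holds the same intensity (largest difference 0). The authors' flags for signal above background, outliers and saturation were used as deposited.

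Log2 intensity was set relative to the 75th percentile of an array's non-control spots, outlier-flagged spots were dropped and spots of a probe averaged. Groups were compared with limma 3.58.1 in R 4.3.3 over all probes with detection on 5 or more arrays. Of the members, 261 were named through a table of the GRCm38.p6 assembly (159 by accession, 69 by symbol, 33 by synonym), used for names and promoters only, and 100 kept the file's name. The window, its members and the gene lists were chosen with earlier results of these data known. Named were Trp53, up to 10 called genes at each end, up to 6 members of each role list by smallest p, the edge probes and genes whose probes disagree; further members were named after their values were seen. Replicate numbers did not pair the samples (correlations of -0.23 to 0.007). Alternatives covered background, scaling, filter, variance model, array weights, slide, GC content, thresholds, window and each array left out. The code was tested on simulated data.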

Additional observations from a re-analysis of the deposited data

Results flagged for a closer look

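In 118 groups of 5 arrays, 11 held an array whose gap to its nearest neighbour was more than 0.71 of the group's range. The groups came from called and named probes, both probes filed under Tmem165 and measures of whole arrays. Many were picked by their values and all come from the same 10 arrays. The rate of about 1 in 20 for independent groups is therefore no baseline here. Of the 11, 7 concerned wild-type array 5. It read 1.38 for Rab28 against 2.03 on the nearest wild-type array, -2.22 for AK045702 against -1.38, 3.26 for Limch1 against 3.73 and -3.71 for Kctd8 against -2.53. It also read 1.21 for Srd5a3 against 0.66, 3.11 for AK007181 (filed under Tmem165) against 0.96 and 0.81 for Rest against 0.51. Among p53-null arrays, array 1 read 2.72 for a Lap3 probe against 2.54, array 2 read -9.94 for Gabra4 against -6.13, and array 4 read 2.05 for Dhx15 against 2.29 and -3.60 for Gabrb1 against -5.73.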

How the results depend on the processing

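With all 10 arrays 9 members were higher and 19 lower, with a median difference of -0.056. The counts were 3 and 8 with median scaling (median -0.13, 4.17% of members against 3.42% of all probes). With quantile normalization they were 6 and 24 (-0.10, 11.4% against 7.56%, and 20.0% of calls higher in place of 32.1%). With no filter on dim probes they were 2 and 4 (median 0.0048, of opposite sign, 1.66% of members against 1.82% of all probes). The median of all tested probes shifted in the same direction in each of these settings. From 0.037 in the main fit it went to -0.032 with median scaling, -0.0098 with quantile normalization and 0.078 with no filter. The counts were 21 and 70 (34.5% against 31.4%) with array weights, which gave wild-type array 5 a weight of 0.17. They were 0 and 0 in a fit with slides as fixed blocks, at an adjusted p under 0.01, and without the 3 arrays with high skeletal muscle genes (an alternative chosen after seeing the data), and 2 and 0 where 2-fold was required. Few probes of the whole array were called in these settings either: 0%, 0.278% and 0.0329% in the same order. Where 2-fold was required it was 0.981% of all probes, against 0.758% of members. At an unadjusted limma p under 0.05, slide blocks left 3 and 10 (5.04% of all probes), and omission of the muscle-high arrays 19 and 32 (16.9%). As 5 of 6 slides hold a single genotype, the fixed-block fit rests on wild-type array 4 and p53-null array 2 alone. GC trend removal gave 8 and 4, and 15 and 49 without array 5. As replicate numbers did not pair the samples, the replicate block, which gave 0 and 0 (14 and 37 unadjusted; 18.9% of all probes), says nothing of effect size. At the adjusted threshold 0.101% of all probes were called with that block. Leaving out 1 array gave 0 to 19 higher, 2 to 64 lower and medians of -0.064 to -0.038. Without array 5, adjusted p under 0.01 gave 4 and 32 (13.7% of members against 15.3% of all probes). Normexp background, detection on all 10 arrays, a robust variance trend, a random slide block, 1 probe per gene, reference placement on chromosome 5, 50 to 70 Mb alone and the deposited value table kept the counts within 1.5 times; the median was -0.026 with normexp and -0.027 with 1 probe per gene. Under fixed slide blocks Fgfbp1 turned to 0.14 and Adgra3 to 0.083, and without p53-null replicate 2 Gabra4 turned to 0.12 (range without 1 array -0.99 to 0.12). No other of the 48 named probes evaluated changed sign. The cause of these changes was not tested.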
